A study of Mus musculus with 2 samples.

Results

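Dlx1, Dlx2, Dlx5, Dlx6, Gsx2, Nkx2-1, Gad1 and Gad2 are genes of the ventral forebrain, the subpallium, and were examined here in chromatin of the dorsal cerebral wall, a tissue from which the subpallium had been dissected away. The 8 genes were taken from a fixed list. A p300 peak was assigned to a gene when its midpoint lay inside the gene body or within 250 kb of the transcription start site, so that a gene and its neighbour can hold the same peak. By this rule 6 of the 6629 peaks of the series were at the 8 genes, 8 of the 22367 annotated protein-coding genes.

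The tissue was pooled from untreated Swiss Webster mouse embryos at E14.5, that is, 14.5 days of embryonic development. It held the developing neocortex with its progenitor layers, and the cortical hem, hippocampus and choroid plexus had been cut off. Chromatin fixed with formaldehyde was immunoprecipitated with the C-20 antibody to p300, a co-activator that sits at many active enhancers, and chromatin of the same sample without antibody served as the input. Each was sequenced as 1 library. Without replicates the tests here set peak numbers against sequence length and never sample against sample, and the peak list gives positions without read numbers. In such bulk tissue, a site used by few cells and a site bound weakly in many cannot be told apart.

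The telencephalon is divided early into a dorsal part, the pallium, which makes glutamatergic neurons, and a ventral part, the ganglionic eminences, which make GABAergic neurons. Gsx2 and Nkx2-1 are homeodomain factors that give ventral progenitors their identity, Gsx2 mainly in the lateral and Nkx2-1 in the medial eminence. The Dlx factors act after them in cells that become striatal neurons or interneurons, and Gad1 and Gad2 encode the enzymes that make GABA. Interneurons born in the eminences migrate into the cortical wall during this period, so that the dissected tissue is expected to hold some of them among many more pallial cells.

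The peaks that were found are few enough to be read directly. For each locus with a peak, the middle 200 bases of the peak nearest to the start site of a listed gene are shown to give the sequence behind the counts. They are on the plus strand of mm9, at chr2:70396226-70396425 for peak 3402 beside Gad1, at chr2:71490356-71490555 for peak 3406 beside Dlx2 and at chr5:75408908-75409107 for peak 4775 beside Gsx2. Capitals mark matches on either strand to 6 short motifs, namely TAATTA (the core bound by many homeodomain factors, those of the Dlx and Lhx families included), the E-boxes CAGCTG and CATCTG (bound by basic helix-loop-helix factors), CAAGTG (bound by Nkx2 factors), TTGGCA (part of the palindrome bound by Nfi factors) and ACAATG (bound by Sox factors).
Gad1 peak 3402: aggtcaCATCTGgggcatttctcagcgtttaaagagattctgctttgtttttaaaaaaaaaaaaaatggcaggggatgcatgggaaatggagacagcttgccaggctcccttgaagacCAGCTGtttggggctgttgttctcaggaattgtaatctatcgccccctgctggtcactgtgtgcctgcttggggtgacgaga
Dlx2 peak 3406: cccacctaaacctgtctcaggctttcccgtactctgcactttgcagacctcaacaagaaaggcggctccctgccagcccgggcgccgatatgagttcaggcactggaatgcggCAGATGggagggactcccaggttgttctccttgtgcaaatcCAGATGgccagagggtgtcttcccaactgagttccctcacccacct
Gsx2 peak 4775: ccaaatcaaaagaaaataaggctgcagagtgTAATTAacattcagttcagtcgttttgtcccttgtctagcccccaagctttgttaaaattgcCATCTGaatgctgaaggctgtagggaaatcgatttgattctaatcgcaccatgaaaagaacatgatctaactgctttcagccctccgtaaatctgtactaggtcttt

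None of the 8 genes had significantly more p300 peaks than the length of its region predicts. Counts above the 1.3 expected were found at Gsx2 (3) and at Dlx1 and Dlx2 (2 each). In a one-sided exact binomial test of every protein-coding gene, with Benjamini-Hochberg adjustment over all 22367, 0 of the 8 were called (adjusted p under 0.05), where 2.08% of all protein-coding genes were called, and 0 of the 8 had an unadjusted p under 0.05. At least 1 peak was present at 4 of the 8 genes, against 48.7% of all protein-coding genes. The median count was 0.5 peaks for the 8 genes and 0 for all protein-coding genes, and the mean was 1 and 1.13. The regions of the 8 genes, merged where they overlap, covered 2.99 Mb in 6 loci. These held 2.01 peaks per Mb, against 2.59 over the genome. The 6 peaks were 0.0905% of the list (exact Clopper-Pearson 95% interval 0.0332 to 0.197%, counting error only), while the loci made up 0.117% of the assembled sequence, from which 7.74 peaks would be expected.

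Dlx1 and Dlx2 lie tail to tail on chromosome 2 and act in ventral progenitors as these begin to differentiate. Dlx1 (ENSMUSG00000041911, chr2:71366170-71372038, plus strand) had 2 peaks, and Dlx2 (ENSMUSG00000023391, chr2:71381466-71384811, minus strand) had the same 2 (expected 1.3 for each, fold 1.54, exact binomial adjusted p = 1). Peak 3405 (chr2:71256452-71257813) lay 109.0 kb upstream of Dlx1 inside an intron of Hat1, and the start site of Metap1d stood between. Its midpoint was only 1.02 kb from the start of an annotated transcript. Peak 3406 (chr2:71489926-71490985) was intergenic, 105.6 kb upstream of Dlx2 with no other protein-coding start site between them, although the gene model Gm1631 was nearer, at 67.0 kb. Neither peak had Dlx1 or Dlx2 as its nearest protein-coding start site. The 0.232 Mb between the peaks contained Dlx1, Dlx2 and Metap1d and no p300 peak.

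The stretch between paired Dlx genes is known in vertebrates to carry conserved enhancers of the ventral forebrain. Between Dlx1 and Dlx2, from 71372039 to 71381465 on chromosome 2, the list held 0 peaks. Between Dlx6 and Dlx5, from 6818569 to 6827804 on chromosome 6, it also held 0. The authors removed peaks at exons and within 2.5 kb of a start site in another annotation, so part of both stretches was filtered. The filtered part can be given only approximately. Of the 9.43 kb between Dlx1 and Dlx2, where exons of the antisense gene Dlx1as lie, 4.34 kb (46.1%) were outside annotated exons and farther than 2.5 kb from any annotated start. Of the 9.24 kb between Dlx6 and Dlx5, where the noncoding gene Dlx6os1 has exons, 5.77 kb (62.5%) were.

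Dlx5 and Dlx6, which also act in the skeleton and branchial arches, had no peak in their regions. Dlx5 (ENSMUSG00000029755, chr6:6827805-6832085, minus strand) was 278.2 kb from its nearest peak, and Dlx6 (ENSMUSG00000029754, chr6:6813334-6818568, plus strand) was 259.4 kb from the same one. This peak, number 5147 (chr6:6553210-6554558), was thus just outside the 250 kb limit, and it lay 25.2 kb from the start site of Shfm1. On the other side the next peak was number 5148 (chr6:7422313-7422955). The 0.868 Mb between them held Acn9, Dlx5 and Dlx6, and 11.5% of all gaps between neighbouring peaks in the genome were at least as long. Of all protein-coding genes, 48.1% were at least as far from their nearest peak as Dlx5, and 50.3% at least as far as Dlx6.

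Gsx2 had the most peaks of the 8 genes at this reach, but it had 0 within 50 kb and 0 in a regulatory domain ending at the neighbouring protein-coding genes. At Gsx2 (ENSMUSG00000035946, chr5:75471489-75473918, plus strand) there were 3, a fold of 2.32 over the 1.3 expected (exact binomial p = 0.142, adjusted p = 0.971), and 15% of all protein-coding genes had at least 3. Peak 4774 (chr5:75394675-75395980) was intergenic, 76.3 kb upstream. Peak 4775 (chr5:75408310-75409704) was in an intron of Chic2, 62.6 kb upstream, with the midpoint 1.47 kb from the start of an annotated transcript. Peak 4776 (chr5:75643052-75644151) was intergenic, 172.0 kb downstream, beyond Pdgfra, the receptor of oligodendrocyte precursors. Chic2 was the nearest protein-coding gene to the upstream pair, at 45.5 and 31.8 kb, and Pdgfra to peak 4776, at 91.4 kb. None of the 3 peaks was therefore nearest to Gsx2 itself.

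Nkx2-1, the factor that sets the identity of the medial ganglionic eminence, had no peak. Nkx2-1 (ENSMUSG00000001496, chr12:57632922-57637895, minus strand) stood 302.1 kb from the nearest peak, number 1296 (chr12:57335333-57336170), on its downstream side. Upstream the next peak was 1413.2 kb away. These enclosed 1.71 Mb with 10 protein-coding start sites, Nkx2-9, Pax9 and Foxa1 among them, and 4.07% of the gaps in the genome were as long. The distance of the gene itself was common, since 45.6% of protein-coding genes were at least as far from their nearest peak.

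Gad1 held the peak closest to any of the 8 genes. Peak 3402 (chr2:70395921-70396730) lay 3.77 kb upstream of the start site used for Gad1 (ENSMUSG00000070880, chr2:70391129-70440071, plus strand), which belongs to its longest protein-coding form. Since 1 of the 8 annotated Gad1 transcripts starts farther upstream, the peak was also 5.20 kb inside the gene body, in an intron of that transcript. It overlapped no annotated exon and was also within 1500002O10Rik, a noncoding gene on the opposite strand. At least as far from their nearest peak were 99.6% of protein-coding genes, but peaks within 2.5 kb of a start site had been removed, so few genes could have a listed peak much nearer than this one. This was the only one of the 6 peaks for which a listed gene was the nearest protein-coding gene. The region held no further peak, and with 1 against 1.3 expected Gad1 was not called (exact binomial adjusted p = 1).

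Gad2, the gene of the second GABA-making enzyme, was the farthest from p300. The nearest peak to Gad2 (ENSMUSG00000026787, chr2:22477725-22549394, plus strand) was number 3218 (chr2:21839173-21840683), 637.8 kb upstream. On the other side the next peak was 2504.1 kb away. No peak was listed in the 3.14 Mb between, of which 3.09 Mb were assembled sequence, with 31 protein-coding start sites, and 1.26% of the gaps between neighbouring peaks were as long. For the gene itself the distance was less unusual, since 23.9% of protein-coding genes were at least as far from their nearest peak.

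**Figure D1:**
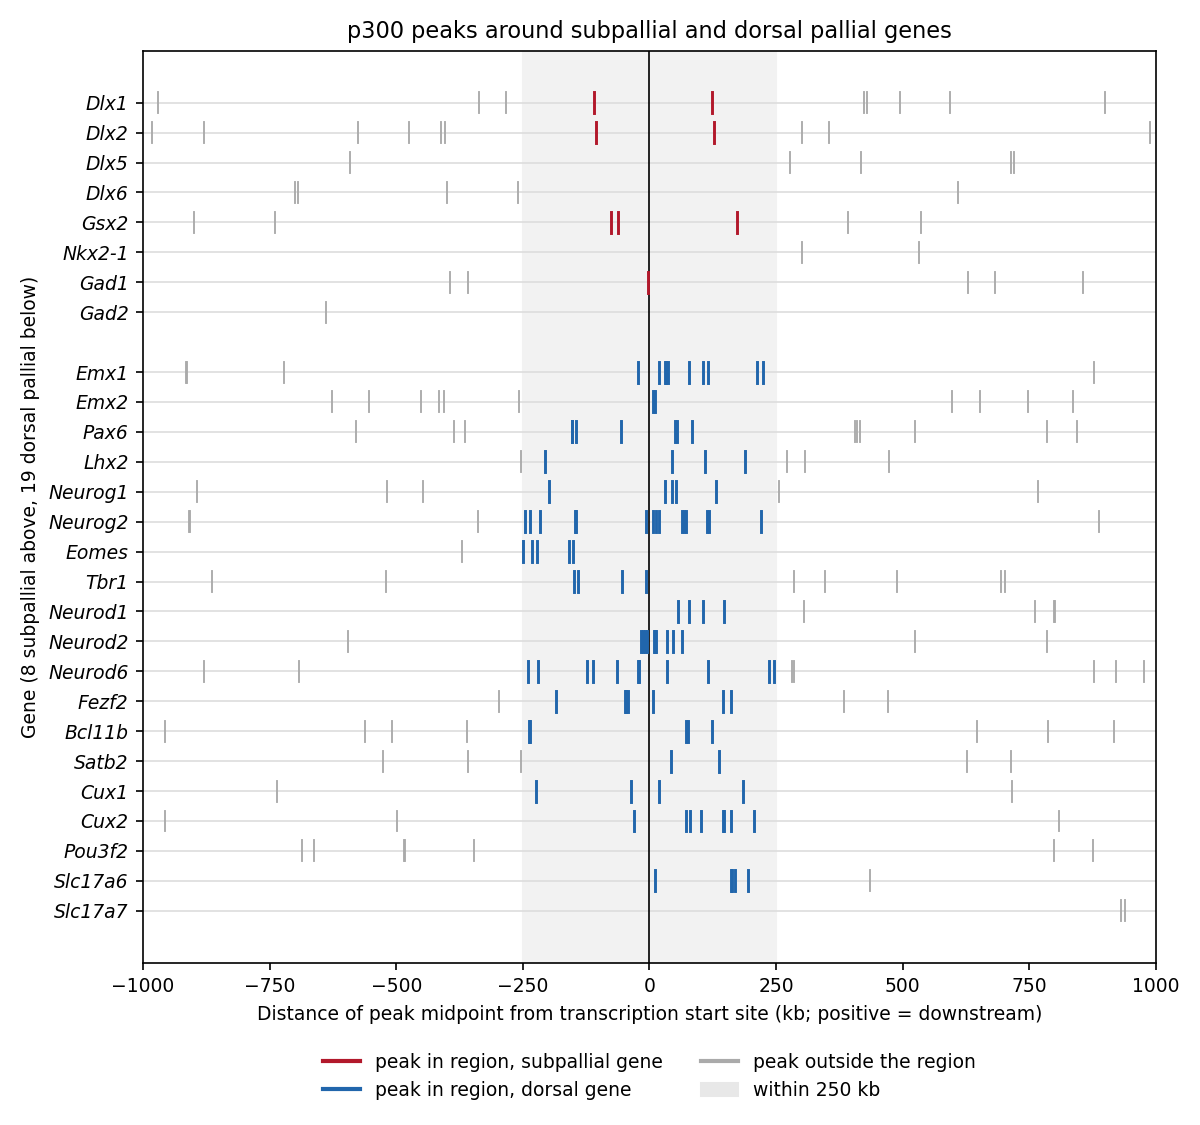
Each row is a gene, each tick the midpoint of a p300 peak, and the horizontal axis its distance in kb from the transcription start site, oriented so that positive values are downstream. Within the grey band of 250 kb either side, Dlx5, Dlx6, Nkx2-1 and Gad2 have no tick and Gsx2 has 3, while Neurog2 has 15.

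With this number of peaks, empty regions are common. A region of this length is expected to hold 1.3 peaks, so a count of 0 had a lower-tail p of 0.274 by the exact binomial test (0.312 for Gad2, whose region is partly unassembled), and no protein-coding gene had a lower-tail adjusted p below 0.571. At this reach the absence of listed peaks at Dlx5, Dlx6, Nkx2-1 and Gad2 could not be distinguished from the genome-wide rate of peaks. The part of the loci outside annotated exons and farther than 2.5 kb from annotated starts was 86.1%, against 88.7% of the genome, and 90.1% of sampled 36-base words in the loci occurred once in the genome, against 85.3% genome-wide. At the lowest locus, that of Dlx5 and Dlx6, 81.2% were unique. The part of unique mapping in that count of 0 was not tested.

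The contrast was given by 19 genes of dorsal progenitors and glutamatergic neurons, counted in the same way. At these genes, which mark the tissue that was dissected, the median was 5 peaks, 17 of 19 had at least 1 and 7 of 19 (36.8%) were called in the same test. Their merged regions held 108 peaks in 9.57 Mb, or 11.3 per Mb, a fold of 4.36 over their length. That is 1.63% of all peaks (exact Clopper-Pearson 95% interval 1.34 to 1.96%) in 0.374% of the assembled sequence. The 8 subpallial genes had a fold of 0.775 by the same count. Counted over the sequence outside annotated exons and starts, the folds were 4.62 and 0.799. Peaks cluster and neighbouring genes share them, so the intervals are narrower than independent loci would give, and the difference between the lists was not tested.

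Among the dorsal genes, Neurog2, the proneural factor of cortical progenitors, had 15 peaks (fold 11.6, adjusted p = 1.44e-08 by the exact binomial test). Neurod6 had 11, and Emx1 and Neurod2 had 10 each (largest exact binomial adjusted p = 0.00019). Cux2, a marker of upper layers, had 8, and Pax6 and Fezf2, a deep-layer factor, had 7 each (exact binomial adjusted p = 0.0193 for both). Neither Pax6 nor Fezf2 was called with a reach of 100 kb or when peaks less than 5 kb apart were joined, and Neurod6 in the former and Neurod2 in the latter also lost the call. The 2 dorsal genes without a peak, named after their counts were seen, were Pou3f2 and Slc17a7. The part of the region outside annotated exons and starts was 91.1% for Pou3f2 and 47.2% for Slc17a7. For Neurod2, with 10 peaks, it was 57.8%. Whether this part bears on the counts was not tested. A gene with a region of 500 kb was called from 7 peaks upward, and the most at any of the 8 subpallial genes was 3.

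**Figure D2:**
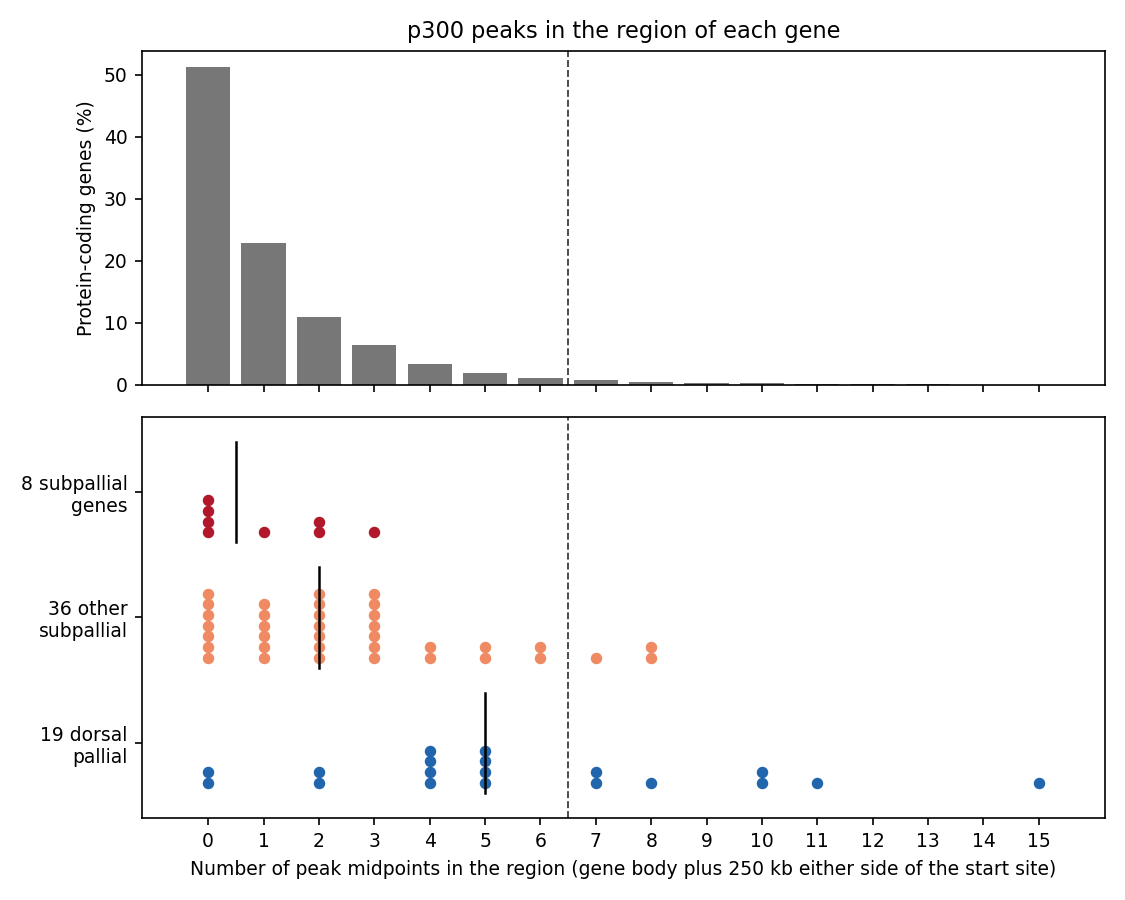
The upper panel gives the percentage of protein-coding genes by number of peak midpoints in their region (up to 15, the highest count being 50), and the lower panel gives each gene of the 3 lists as a point, with a vertical bar at the list's median. The dashed line separates counts that were called from those that were not for regions of 500 kb (Sox6, with 7 peaks in a longer region, was not called). The 8 subpallial genes lie between 0 and 3.

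A longer list of 36 other subpallial genes lay between these extremes. Its median was 2 peaks, 29 of 36 genes had at least 1 and 2 were called, or 5.56%, with 86 peaks and a fold of 1.77. Their peaks made up 1.3% of the list (exact Clopper-Pearson 95% interval 1.04 to 1.6%) in 0.731% of the assembled sequence. The called genes were Olig1 and Olig2, neighbours that share the same 8 peaks and are best known for oligodendrocytes (exact binomial adjusted p = 0.00479). With regulatory domains drawn between protein-coding genes in place of the fixed reach, neither was called, and with a reach of 100 kb Olig1 was not. Sox6, a factor of interneurons from the medial eminence that is also active in pallial progenitors, had 7 peaks in its long region (exact binomial adjusted p = 0.143). Meis2, a striatal factor, had 6 peaks (exact binomial adjusted p = 0.0697).

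By role, the 8 genes for factors of interneurons from the medial eminence had a median of 2.5 peaks, and the 8 striatal and lateral eminence genes had the same median. The 5 genes of the caudal eminence and olfactory interneurons had a median of 3, and the 7 ventral progenitor factors a median of 4. The 6 genes for peptides, calcium-binding protein, receptors and migration cues of interneurons had a median of 1.5. Outside the ventral progenitor factors, which include Olig1 and Olig2, no gene of these groups was called. Slc32a1, which encodes the vesicular transporter of the GABA that Gad1 and Gad2 make, had 2 peaks and was named after its count was seen. No peak was shared between the 3 lists.

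**Figure D3:**
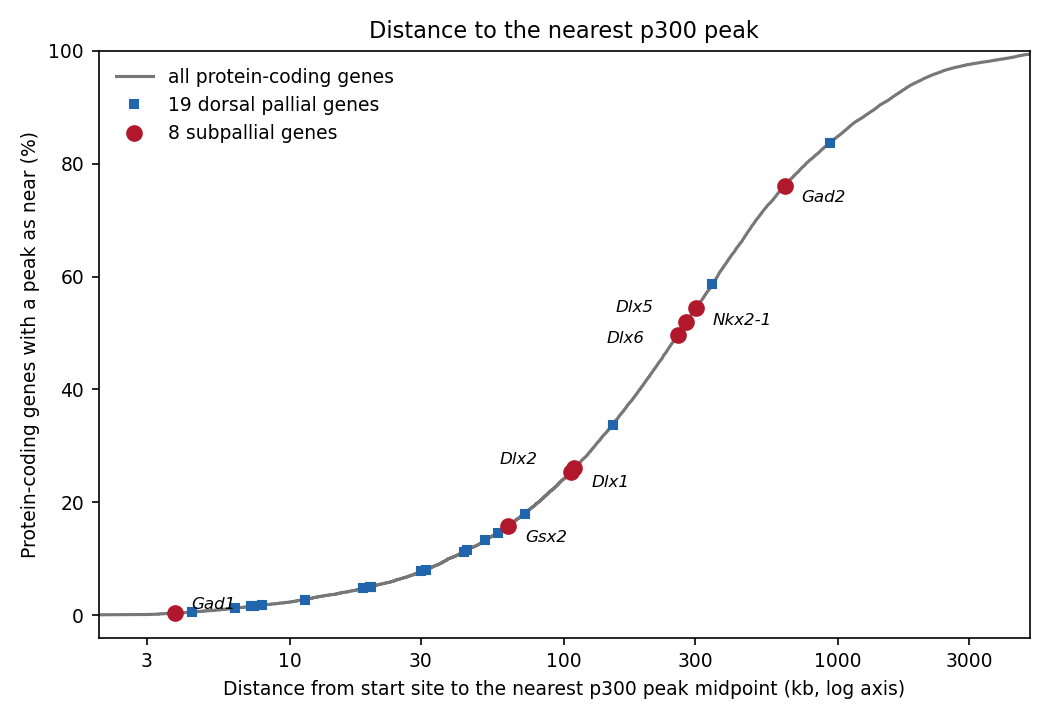
The curve gives the percentage of protein-coding genes (vertical axis) whose start site has a p300 peak midpoint within the distance on the horizontal log axis, in kb and up to 5000, and points mark the 8 subpallial and 19 dorsal genes on it. Of the 8 subpallial genes Gad1 is nearest at 3.8 kb and Gad2 farthest at 637.8 kb, while most dorsal genes are below 60 kb and Slc17a7 is at 932.3 kb.

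Measured from the start site, the nearest peak was a median of 184.2 kb away for the 8 genes, with a range from 3.8 to 637.8 kb. It was 82.7 kb away for the 36 other subpallial genes, 30.0 kb for the dorsal genes and 262.1 kb for all protein-coding genes. In order of distance the 8 genes were Gad1, Gsx2, Dlx2, Dlx1, Dlx6, Dlx5, Nkx2-1 and Gad2. With 1 library there is no spread by which neighbours in this order could be told apart.

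The picture changed with the reach of the region. Within 50 kb, 1 of the 8 genes had a peak (Gad1), and the mean was 0.125 peaks per gene against 0.259 for all protein-coding genes and 2.42 for the dorsal genes. Within 500 kb, 1 of the 8, Gad2, still had none. The mean was then 3.25 against 2.39 for all protein-coding genes and 7.53 for the dorsal genes. These means count a shared peak for each gene, and the 26 counts at the 8 genes came from 17 distinct peaks. The largest gains were at Dlx1 and Dlx2, which then had the same 7 peaks. They were the only 2 of the 8 with an unadjusted p under 0.05, but were not called (exact binomial adjusted p = 0.197). The 5 peaks added there were nearest to other genes, 2 of them to Dync1i2, a dynein subunit, and 3 to Rapgef4. At 1 Mb Gad2 had 1 peak and Nkx2-1 had 2, with lower-tail p of 0.0387 and 0.11 from the exact binomial test before adjustment and 0.152 and 0.309 after it. At that reach 2948 protein-coding genes had a lower-tail adjusted p under 0.05, and none of the 8 did.

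**Figure D4:**
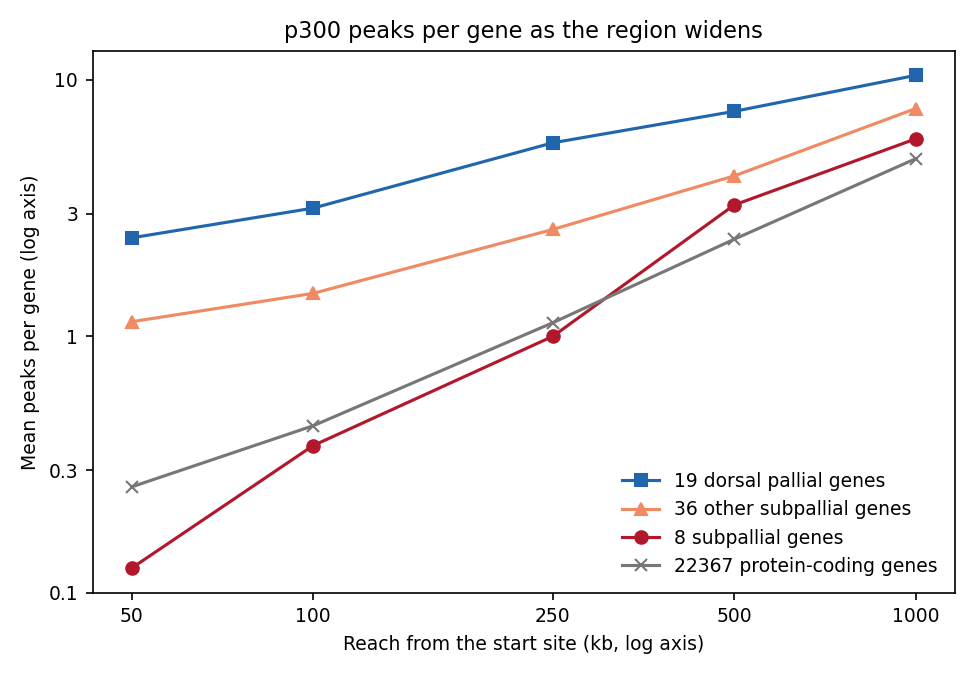
Mean number of p300 peaks per gene (vertical log axis) against the reach of the region from the start site in kb (horizontal log axis), for the 8 subpallial, 36 other subpallial, 19 dorsal and 22367 protein-coding genes. The dorsal genes are highest at every reach, and the 8 subpallial genes are below the average of all genes up to 250 kb and above it from 500 kb. A peak shared by neighbouring genes counts for each of them.

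As single regions the 6 peaks were ordinary in width. They were 810 to 1395 bp wide with a median of 1203 bp, against 1017 bp for all peaks, and 5 of the 6 reached or exceeded that median. The narrowest was peak 3402 at Gad1, wider than or equal to only 18.2% of peaks. Their GC content ran from 33 to 48.8% with a median of 44.2%, against 45.2% for all peaks, and the lowest were the intronic peaks 3405 in Hat1 (33%) and 4775 in Chic2 (35.3%). They were more isolated than most. The distance to the next peak was a median of 197.1 kb for the 6, 49.9 kb for all peaks and 9.0 kb for the peaks at dorsal genes, and only the pair 4774 and 4775 upstream of Gsx2, 13.7 kb apart, was close together. A listed gene was the nearest protein-coding gene for 1 of the 6 peaks, or 16.7% (exact Clopper-Pearson 95% interval 0.421 to 64.1%). The share was 54 of 86 (62.8%) for the 36 other subpallial genes and 46 of 108 (42.6%) for the dorsal genes, both within that interval.

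Motifs were counted in the middle 300 bp of each peak on both strands, beside the share of all 6629 peaks with a match in the same length. The homeodomain core TAATTA was in 1 of the 6, peak 4775 near Gsx2, and in 23.5% of all peaks. An E-box was in each of the 6, with CAGCTG in 3 (30.9% of all peaks) and CATCTG in 4 (45.7%). Either of these, a combination chosen after the matches were seen, occurred in 6 of 6 and in 62.2% of all peaks. The letters CAAGTG were in 1 (18% of all peaks), ACAATG in 2 (18.1%) and TTGGCA in 0 (31.6%). In the printed sequences, peak 3402 at Gad1 had CATCTG and CAGCTG, and peak 4775 had TAATTA and CATCTG. Peak 3406 upstream of Dlx2 had CAGATG, the reverse complement of CATCTG, at 2 places. With 6 peaks these counts are descriptions, and a match does not show that a factor was bound.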

How the data were processed

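The authors placed 36-base reads on mm9 with ELAND, allowing 2 mismatches and only unique positions. Peaks over the input were called with MACS, version 1.4 according to the submitters' processing notes. The authors then filtered the calls for distal sites, using UCSC knownGene: no exonic or promoter peak (2.5 kb) was kept, nor any that ambiguous alignment might have produced. The deposited list gives peak positions only, with no score or count, so the depth behind a peak is unknown. No file of the input was used here.

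Positions were computed on NCBIM37, the mm9 assembly, with GENCODE vM1. Of genes under several identifiers the longest was used. The start site was that of the form with the longest coding sequence. The number of midpoints in a gene's region was set against the region's part of the assembled genome in an exact binomial test, one-sided, and p-values of all protein-coding genes were adjusted together by Benjamini-Hochberg. Sequence left by the authors' filter was approximated with GENCODE exons and starts (143 listed peaks, 2.16%, overlap such an exon). Unique 36-base words were sampled every 50 bases. Python 3.11.15, numpy 2.4.6, scipy 1.17.1, numba 0.67.0 and matplotlib 3.10.9 were used, and the counting was checked on simulated data.

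The 8 genes, the lists of 36 and 19 genes and the motifs were chosen with earlier results of these data known. All 8 genes and the protein-coding gene nearest to each of their peaks were named, and from the other lists the called genes and the 5 with most peaks, of which 1 is not reported here.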

Additional observations from a re-analysis of the deposited data

How the results depend on the processing

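No paired analysis was possible because there is 1 p300 library and no replicate. In all 12 alternatives 0 of the 8 subpallial genes were called. At reaches of 100 kb, 500 kb, 50 kb and 1 Mb (the last pair chosen after seeing the data) the 8 genes together had 3, 26, 1 and 47 peaks, counting a shared peak for each gene, and 3, 17, 1 and 28 distinct peaks, where 250 kb gave 8 and 6. At the same reaches 197, 914, 101 and 1537 protein-coding genes were called, against 466 at 250 kb. Other subpallial genes called numbered 4 of 36 at 500 kb, 1 at 50 kb and 8 at 1 Mb. Dorsal genes called fell from 7 of 19 to 4 at 100 kb and to 5 at both 50 kb and 1 Mb. They stayed at 7 at 500 kb. At 1 Mb the lists were thus closer, with 8 of 36 and 5 of 19 called, where 6.87% of all protein-coding genes were. Regulatory domains between protein-coding genes, which are shorter than the fixed regions at all 8 genes, gave the 8 genes 3 peaks, called 0 of the 36 other subpallial genes and 255 protein-coding genes. Joining peaks less than 5 kb apart left 4 dorsal genes and 256 protein-coding genes called. Of 80 counts for single genes, 56 were within 1.5 times the reported one, 15 were higher and 9 lower. In whole peaks rather than their middle, TAATTA was in 1 of 6 (46.7% of all peaks). The E-boxes CAGCTG and CATCTG were each in 5 (56.3% and 74.8% of all peaks). The Nkx2 letters CAAGTG were in 5 (50.5%), the Sox letters ACAATG in 4 (48.3%) and the Nfi letters TTGGCA in 2 (60.7%). Peak strength could not be assessed from positions.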
